A study of Mus musculus with 14 samples.

Results

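The 10 genes described here encode parts of cohesin and condensin: the cohesin ring subunits Smc1a, Smc3, Rad21 and Stag2, the cohesin loader Nipbl, the cohesin acetyltransferases Esco1 and Esco2, and the condensin subunits Smc2, Smc4 and Ncapg. They were taken by name from 41053 gene rows of the deposited count tables, where all 10 were found, and all 10 had enough counts to be tested in every comparison. The list holds no threshold, but its genes were chosen by name with the log2 fold changes and calls of these libraries known, and which of those values guided the choice is not recorded. So the values of its members in each comparison below are a description and are not offered as support for anything about the list. The study sequenced mRNA from mouse spleen cells, labelled C57BL/6, in 14 libraries that differ in Tet2, which encodes a dioxygenase acting on 5-methylcytosine in DNA. Germinal center (GC) B cells came from mice labelled TET2 knock-out (KO, 4 libraries) or wild-type (WT, 3 libraries), and lymphoma B cells carried a knock-down of TET2 (shTet2, 2 libraries) or were controls labelled TET2 wild-type (5 libraries). Not given in the sources used here are the deleted part of Tet2 and the cells it was deleted in, the purification of the GC B cells, the ages of the mice and the origin of the lymphoma. No label says that the libraries of a group came from separate animals, so p-values measure the spread between libraries, which may be technical.

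Cohesin is a ring built on SMC1A, SMC3 and RAD21, with a STAG subunit bound to it. It is loaded onto chromatin by NIPBL with its partner MAU2, extrudes loops, and holds sister chromatids together from S phase until separase cuts RAD21 at anaphase. ESCO1 and ESCO2 acetylate SMC3, ESCO2 chiefly during S phase, and sororin then protects the acetylated rings from release. Condensin is a related machine with SMC2 and SMC4 as its SMC pair, and it compacts chromosomes in mitosis. NCAPG belongs to condensin I, while NCAPG2 belongs to condensin II. GC B cells are among the fastest dividing cells of the body, and both complexes are needed in each division.

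RefSeq promoter sequences (GRCm38.p6) were at hand for 4 of the 10 genes, and they are shown because they include a pair whose transcripts were higher in shTet2 lymphoma cells (Smc2, Ncapg) and a pair that differed by less than the spread between libraries (Smc1a, Smc3). Each is the 250 bases before the annotated start, on the plus strand, at chr4:52438971-52439220 for Smc2, chr5:45669675-45669924 for Ncapg, chrX:152016178-152016427 for Smc1a and chr19:53600146-53600395 for Smc3. Capitals mark the CCAAT box (CCAAT, or ATTGG where it lies on the other strand) and the cell cycle genes homology region, or CHR (TTTGAA, or TTCAAA on the other strand), which are motifs known from promoters of genes used in mitosis.
Smc2: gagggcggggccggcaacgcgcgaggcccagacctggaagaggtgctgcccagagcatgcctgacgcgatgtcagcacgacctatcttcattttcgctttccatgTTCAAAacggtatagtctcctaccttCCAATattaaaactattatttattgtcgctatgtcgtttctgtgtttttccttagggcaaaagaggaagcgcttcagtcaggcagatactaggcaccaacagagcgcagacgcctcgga
Ncapg: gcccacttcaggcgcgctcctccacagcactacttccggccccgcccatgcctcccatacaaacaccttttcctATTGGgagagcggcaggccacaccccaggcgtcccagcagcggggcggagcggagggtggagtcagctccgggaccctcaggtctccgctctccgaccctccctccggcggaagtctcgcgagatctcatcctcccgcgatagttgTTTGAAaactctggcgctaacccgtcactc
Smc1a: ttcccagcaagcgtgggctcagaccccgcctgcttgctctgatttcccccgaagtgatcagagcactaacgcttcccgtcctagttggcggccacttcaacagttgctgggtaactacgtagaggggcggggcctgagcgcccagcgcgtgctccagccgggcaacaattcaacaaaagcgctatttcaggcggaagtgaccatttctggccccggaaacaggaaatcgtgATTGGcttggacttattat
Smc3: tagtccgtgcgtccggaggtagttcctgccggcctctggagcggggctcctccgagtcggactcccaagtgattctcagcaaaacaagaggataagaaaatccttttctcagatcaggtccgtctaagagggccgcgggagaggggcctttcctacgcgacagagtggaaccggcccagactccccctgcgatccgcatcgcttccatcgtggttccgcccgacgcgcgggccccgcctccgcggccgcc
The Ncapg window holds TTTGAA from -30 to -25 and ATTGG from -176 to -172, counted from the annotated start. The Smc2 window holds TTCAAA from -145 to -140 and CCAAT from -119 to -115. The Smc1a window holds ATTGG from -19 to -15, and neither motif is in the Smc3 window. On both strands of 32851 promoter windows of the same length, a CCAAT box occurred in 33.8% and a CHR in 16%, so single matches are common. The E2F forms GCGGGAA and TTTGGCGC, found in 3.82% and 0.417% of windows on both strands, are in none of these 4. These matches are descriptions of letters and say nothing of which factor binds.

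Total counts were 27191862 to 30434184 per GC library and 6691167 to 18598386 per lymphoma library, of which 1532253 to 6996208 lay outside a list of ribosomal and other structural RNA genes. That list took 0.355% to 1.24% of counts in GC B cells, 43.5% and 52.5% in the shTet2 libraries and 54.8% to 80.6% in the lymphoma controls. Tet2 itself was at 11.9 to 14.6 CPM in KO and 11.8 to 14.2 CPM in WT GC B cells, so the counts over its whole transcript do not separate these labels (CPM are counts scaled to library size, with TMM factors within each table). In lymphoma cells Tet2 was at 50.7 and 54.9 CPM in the libraries labelled shTet2 and at 57.5 to 68.0 CPM in controls, with no overlap, but without a call (log2 fold change -0.21, SE 0.10, edgeR Benjamini-Hochberg adjusted p = 0.295). The summed CPM of 7 B-cell markers was 8455 to 9437 in GC B cells and 2425 to 2749 in lymphoma cells, and none of the 7 was called in either comparison. The summed CPM of GC markers was 1997 to 2403 in GC B cells and 118 to 226 in lymphoma cells. Both sums are scaled within each table, so they are not on a common scale between the cell sources. In a model of all 14 libraries, control lymphoma was instead tested against WT GC B cells. There the 7 B-cell markers had a median log2 fold change of -0.30 (5 called lower, 1 higher). The 7 tested GC markers had a median of -5.73, with 7 called lower.

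In Tet2 KO GC B cells, transcripts of the S-phase acetyltransferase Esco2 were 1.37-fold higher than in WT, and none of the other 9 cohesin and condensin genes passed the test. A call means a Benjamini-Hochberg adjusted p under 0.05 in edgeR's quasi-likelihood test over all 13600 genes tested. By that rule 6.49% of all genes were called in this comparison, 1.92% as higher and 4.57% as lower, and 1 of the 10 members was called, as higher. The median log2 fold change of the members was -0.02, against 0.01 for all genes.

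Esco2 (chr14:65819038-65833994, minus strand) was at 139, 133, 111 and 130 CPM in KO replicates 2, 3, 4 and 5. In WT replicates 1, 3 and 4 it was at 95.4, 96.8 and 89.0 CPM. All 4 KO libraries lay above all 3 WT libraries, and KO replicate 4 was the closest to them. The log2 fold change was 0.45 (SE 0.09, edgeR Benjamini-Hochberg adjusted p = 0.00647). Its paralog Esco1, which acetylates SMC3 throughout the cell cycle, was at 56.6, 57.4, 57.2 and 62.6 CPM in KO and at 63.4, 64.3 and 54.5 CPM in WT. The groups overlapped, with WT replicate 4 the lowest of the 7 libraries and the log2 fold change at -0.06 (SE 0.09).

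Ncapg (chr5:45669922-45700544, plus strand), the HEAT-repeat subunit of condensin I, was at 206, 195, 174 and 180 CPM in KO and at 165, 165 and 147 CPM in WT. The groups did not overlap, but the gap between the lowest KO and the highest WT library was small and the gene was not called (log2 fold change 0.24, SE 0.09, edgeR adjusted p = 0.114). Exons of Ncapg overlap those of Lcorl on the other strand over 942 bases, and no strand option was used in counting, so reads there cannot be assigned to either gene. Smc4 (chr3:69004738-69034623, plus strand), shared by both condensins, was at 613, 547, 573 and 538 CPM in KO and 526, 538 and 462 CPM in WT. Here KO replicate 5 and WT replicate 3 met at the same level, and the log2 fold change was 0.16 (SE 0.09). Its partner Smc2 (chr4:52439243-52488260, plus strand) was at 179, 166, 187 and 161 CPM in KO and 186, 191 and 147 CPM in WT. The Smc2 groups overlapped fully, with WT libraries at both ends (log2 fold change -0.01, SE 0.10). Esco2 and Ncapg were thus 2 of 10 members with every KO library above every WT library, against 7.65% of all genes tested. None of the 10 had every KO library below, against 10.6% of all genes.

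The 4 ring subunits overlapped between KO and WT. Rad21 (chr15:51962605-51991760, minus strand), the ring's cleavable link, was at 431, 442, 489 and 418 CPM in KO and 478, 514.4 and 407 CPM in WT. Smc1a (chrX:152016428-152062694, plus strand) was at 494, 473, 546 and 430 CPM in KO and 486, 514.4 and 418 CPM in WT, and its ring partner Smc3 (chr19:53600398-53645833, plus strand) at 236, 236, 250 and 203 CPM in KO and 250, 252 and 203 CPM in WT. For all 3 genes the lowest WT library was replicate 4 and the highest KO library was replicate 4. These extremes were not particular to the ring genes. WT replicate 4 was the lowest WT library for every member, and KO replicate 4 was also the highest KO library for Stag2 and Smc2. Stag2 (chrX:42149317-42277185, plus strand) was at 198, 206, 223 and 216 CPM in KO and 233, 227 and 186 CPM in WT. The loader Nipbl (chr15:8291225-8444463, minus strand) was at 113, 159, 141 and 131 CPM in KO and 143, 154 and 123 CPM in WT. Log2 fold changes of these 5 genes lay between -0.07 and 0.04 with SE of 0.09 to 0.11, and the edgeR adjusted p ranged from 0.750 to 0.932.

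**Figure D1:**
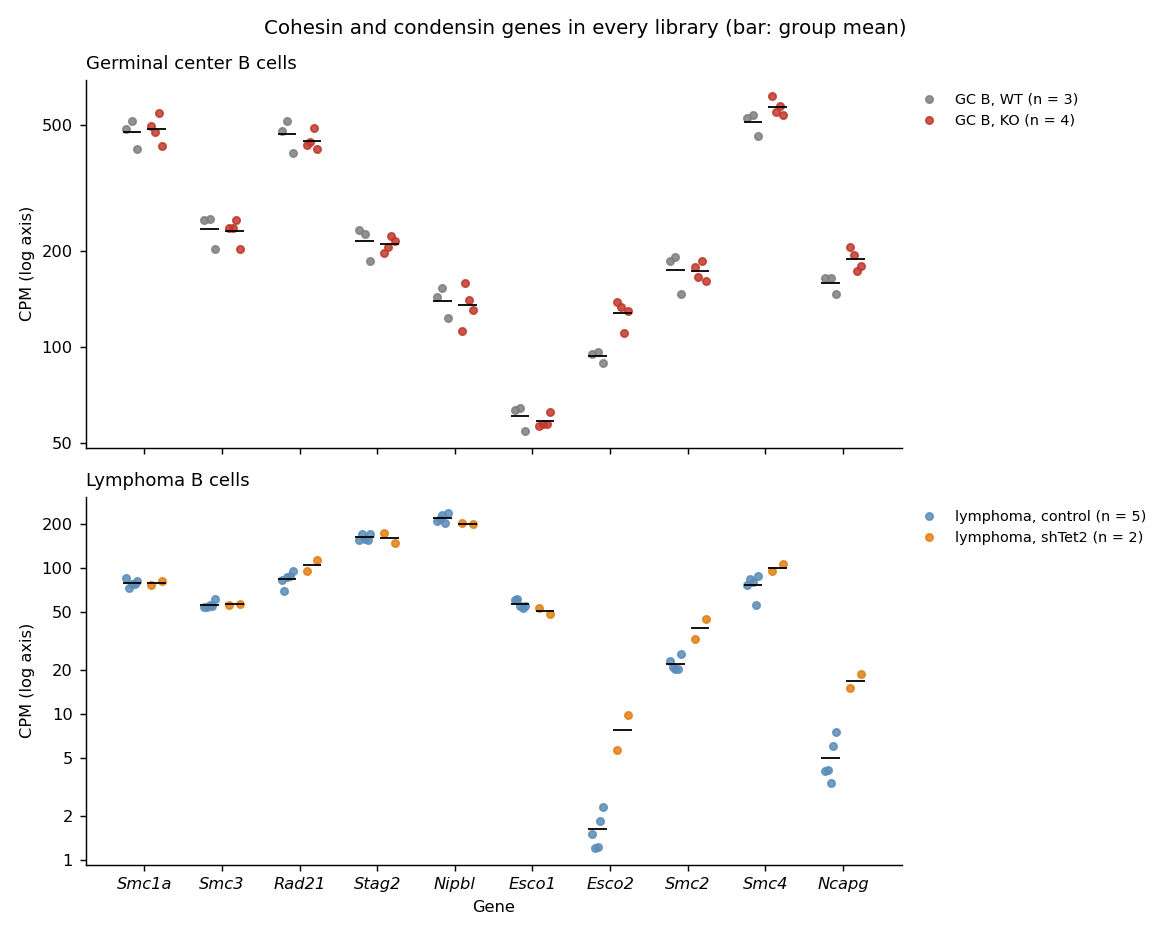
CPM of each of the 10 cohesin and condensin genes (log axis) in every library of the 4 groups; each point is 1 library and the bar is the group mean. Esco2 was at 111 to 139 CPM in the KO and 89.0 to 96.8 CPM in the WT GC B cells, and in lymphoma cells Esco2 and Ncapg show the widest gap between the shTet2 and control libraries.

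Of the other cohesin, condensin and SMC5/6 genes, 31 of 32 listed were in the tables, 29 had enough counts for a test in GC B cells, and none was called by edgeR. The unadjusted p was under 0.05 for 3 of them (Mau2, Stag3, Smc5), and their median log2 fold change was 0.11. Mau2, the partner of Nipbl in loading, was at 110, 162, 119 and 146 CPM in KO and 112, 103 and 111 CPM in WT (log2 fold change 0.31, SE 0.12, edgeR adjusted p = 0.164), with KO replicate 2 among the WT values. Espl1, encoding separase, had a log2 fold change of 0.12 (adjusted p = 0.503). Stag3, a STAG subunit known from meiosis, was low throughout, at 7.37, 8.96, 6.31 and 6.76 CPM in KO and 4.09, 1.96 and 5.79 CPM in WT. Its groups did not overlap, yet the adjusted p was 0.0872 (log2 fold change 0.90, SE 0.29), and DESeq2 and limma-voom each called it. The meiotic kleisin Rec8 lay the other way at -0.89 (adjusted p = 0.263). Smc5, the SMC subunit of the third complex of this family, was at 110 to 124 CPM in KO and 85.4 to 104 CPM in WT (0.27, SE 0.09, adjusted p = 0.0887), and Nsmce2, its SUMO ligase, was at 0.19 (adjusted p = 0.365). In condensin II, Ncaph2 was higher in all 4 KO libraries (360 to 372 CPM) than in the WT libraries (320 to 334 CPM) without passing the test (0.16, SE 0.07, adjusted p = 0.253), and Ncapd3 had the same log2 fold change (0.16, adjusted p = 0.379).

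Genes of mitosis and of DNA replication did not separate the GC B-cell groups. None of 20 mitosis genes was called (median log2 fold change 0.04, 2 with an unadjusted p under 0.05), and none of 20 replication genes was called (median 0.07, 1 with an unadjusted p under 0.05). The smallest p among them belonged to Incenp (log2 fold change 0.20, edgeR adjusted p = 0.171) and Aurka (0.21, 0.217) for mitosis, and to Pole (0.24, 0.154) and Tyms (-0.19, 0.384) for replication. The summed CPM of the mitosis list was 6093 to 7301 in KO and 5934 to 7429 in WT. Per 100 CPM of that list, Esco2 was at 1.90, 1.89, 1.56 and 2.13 in KO and at 1.42, 1.30 and 1.5 in WT. Its groups did not overlap on this scale, but KO replicate 4 (1.56) was close to WT replicate 4 (1.5). Ncapg ran from 2.44 to 2.96 in KO and from 2.23 to 2.48 in WT, so its groups overlapped here. Those of Smc2 and Smc4 overlapped as well. The part of cell division in the Esco2 result was not tested.

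Markers of other cells and sex-linked genes moved with the GC B-cell groups. All 7 of 8 myeloid markers that could be tested (Emr1, C1qa, C1qb, C1qc, Lyz2, Csf1r, Itgam) were called lower in KO, with a summed level of 16.9 to 21.2 CPM in KO and 38.1 to 56.7 CPM in WT. None of the 8 was at 0 in any GC library, and Cd14 was the lowest, at 0.0657 to 0.201 CPM in KO and 0.290 to 1.08 CPM in WT. All 4 Y-linked genes, which do not mark a cell type, were called higher in KO (summed 173 to 192 CPM in KO and 96.3 to 119 CPM in WT). Xist was not called, at 269 to 456 CPM in KO and 397 to 493 CPM in WT. Every GC library thus held both Xist and Y-linked transcripts. Of 4 tested T-cell markers, only Thy1 was called, as higher (2.11 to 2.46 CPM in KO, 0.226 to 0.668 CPM in WT). Cd3g lay the other way without a call, at 0.0985 to 0.418 CPM in KO and 0.419 to 1.23 CPM in WT. The T-cell markers thus did not move together. None of 5 erythroid, 5 plasma-cell and 7 GC markers was called. The part of these differences in the Esco2 result was not tested. For cell-type markers in bulk libraries, fewer cells of a type and less RNA per cell cannot be told apart.

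In the lymphoma cells, Esco2 was 4.63-fold, Ncapg 3.33-fold and Smc2 1.75-fold higher in the shTet2 libraries than in controls, while none of the ring subunits, the loader or Esco1 passed the test. Over all 12797 genes tested, 2.58% were called, 1.84% as higher and 0.742% as lower, and 3 of the 10 members were called, all as higher. The median log2 fold change of the members was 0.16, while that of all genes was within 0.01 of 0. Every shTet2 library lay above every control for 5 members (Esco2, Ncapg, Smc2, Smc4, Rad21), against 11.5% of all genes tested, and below every control for 1 member (Esco1), against 9.75% of all genes.

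Esco2 was at 5.68 and 9.79 CPM in shTet2 replicates 1 and 2, from 109 and 146 counts. In controls 1 to 5 it was at 1.51, 1.20, 1.23, 1.85 and 2.32 CPM, from 12, 5, 21, 22 and 27 counts. Both shTet2 libraries stood well clear of all controls, with replicate 2 the higher (log2 fold change 2.21, SE 0.28, edgeR adjusted p = 0.00418, 95% interval 1.65 to 2.77). The control values rest on few reads, and their number limits how precisely the size is known. Esco1, in contrast, was at 52.6 and 48.2 CPM in shTet2 and at 60.2, 60.7, 54.4, 53.1 and 54.6 CPM in controls. The lowest control and the higher shTet2 library were nearly level (log2 fold change -0.16, SE 0.10, edgeR adjusted p = 0.400, 95% interval -0.36 to 0.03).

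Ncapg was at 14.9 and 18.8 CPM in shTet2 (286 and 280 counts) and at 4.03, 4.09, 3.34, 5.98 and 7.46 CPM in controls (32, 17, 57, 71 and 87 counts). The shTet2 libraries were both above the highest control, replicate 5 (log2 fold change 1.74, SE 0.25, edgeR adjusted p = 0.00880, 95% interval 1.24 to 2.23). Smc2 was at 32.5 and 44.8 CPM in shTet2 and at 23.1, 20.9, 20.2, 20.2 and 25.7 CPM in controls. Here the controls were tightly grouped and the shTet2 libraries were unequal (log2 fold change 0.81, SE 0.14, edgeR adjusted p = 0.0120). Without shTet2 replicate 2, the Smc2 log2 fold change was 0.56 and the adjusted p 0.0806. Smc4, which pairs with Smc2 in every condensin, was at 94.5 and 106 CPM in shTet2 and at 76.2, 83.6, 79.4, 55.9 and 88.0 CPM in controls. Both shTet2 libraries were above the controls, of which replicate 4 was lowest, but Smc4 was not called (log2 fold change 0.39, SE 0.15, edgeR adjusted p = 0.180, 95% interval 0.10 to 0.67).

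Rad21 was at 95.7 and 113 CPM in shTet2 and at 82.3, 68.9, 86.2, 88.4 and 94.3 CPM in controls. The groups touched without overlapping, and the log2 fold change of 0.31 (SE 0.12) had an edgeR adjusted p of 0.181. Without shTet2 replicate 1, Rad21 had a log2 fold change of 0.42 with an adjusted p of 0.0349. Smc1a was at 76.4 and 81.1 CPM in shTet2 and at 85.4, 72.5, 77.7, 77.0 and 80.6 CPM in controls. Smc3 was at 55.9 and 56.6 CPM in shTet2 and at 53.7, 53.7, 55.3, 54.5 and 61.1 CPM in controls. The SMC pair of cohesin was level between the groups, with 95% intervals of the log2 fold change from -0.18 to 0.18 for Smc1a and from -0.17 to 0.20 for Smc3. Stag2 was at 172 and 148 CPM in shTet2 and at 156, 170, 157, 155 and 170 CPM in controls (log2 fold change -0.01, 95% interval -0.20 to 0.17). Nipbl was at 201 and 199 CPM in shTet2 and at 208, 216, 231, 201 and 235 CPM in controls, so that the shTet2 libraries lay at the bottom of the control range (log2 fold change -0.13, SE 0.09, edgeR adjusted p = 0.497).

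**Figure D2:**
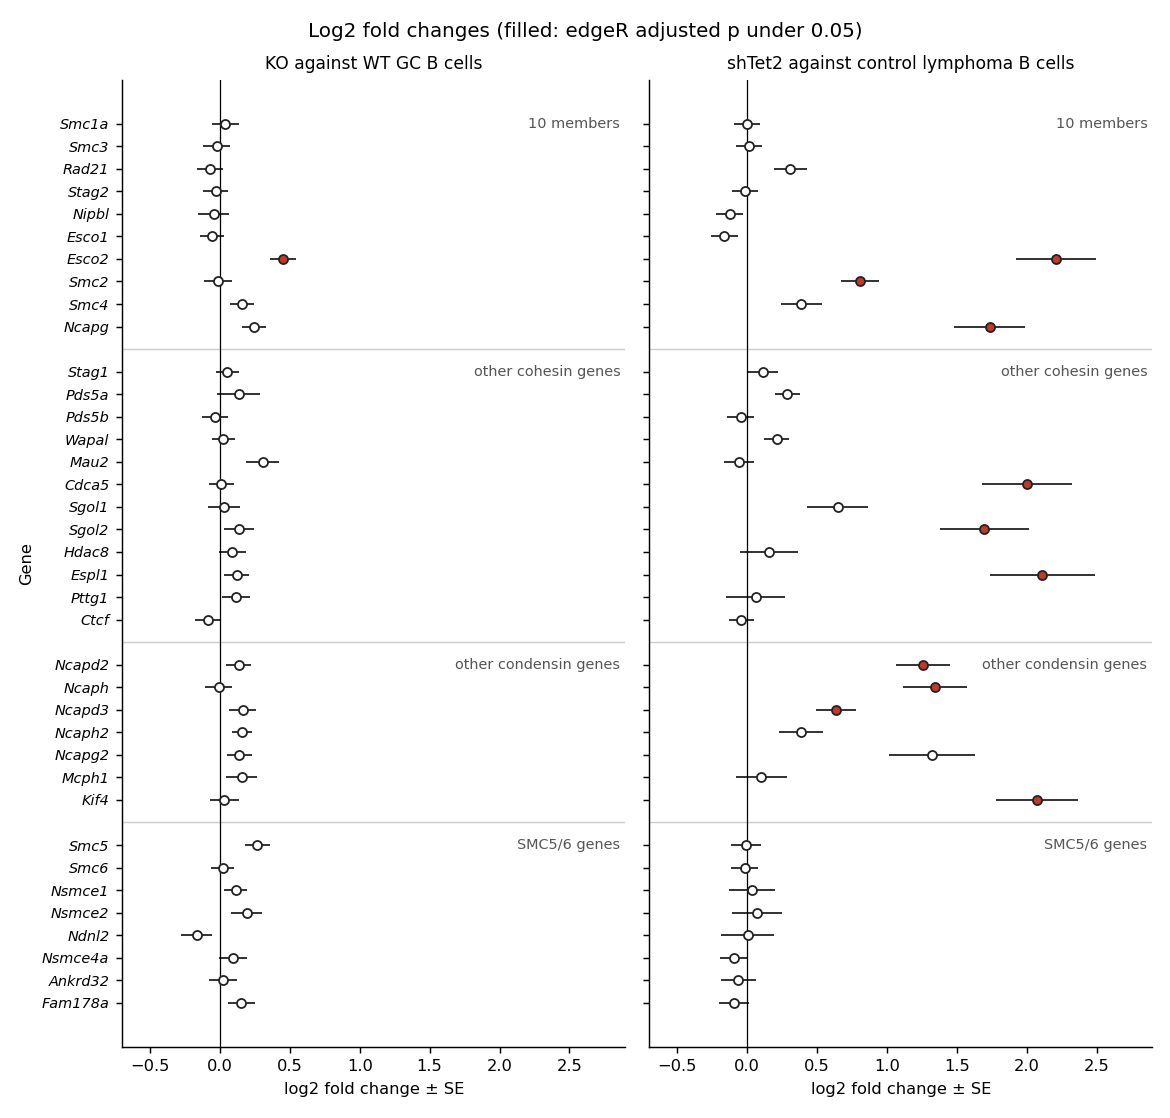
Log2 fold change with bars of 1 SE either way (edgeR) for the 10 members and the other cohesin, condensin and SMC5/6 genes, KO against WT GC B cells and shTet2 against control lymphoma B cells; filled points passed an adjusted p of 0.05. In lymphoma cells Esco2 (2.21), Ncapg (1.74) and Smc2 (0.81) were called with 3 cohesin and 4 condensin partners, and the SMC5/6 genes lay between -0.09 and 0.07.

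Of the 28 other genes of these complexes that could be tested in lymphoma cells, 7 were called higher and none lower in shTet2, and 12 had an unadjusted p under 0.05. Their median log2 fold change was 0.14. Among 12 cohesin partners the 3 called genes were Cdca5, encoding sororin, Espl1, encoding separase, and Sgol2, a shugoshin that protects centromeric cohesin. Cdca5 was at 5.01 and 7.10 CPM in shTet2 and at 1.51, 0.722, 1.29, 2.53 and 1.12 CPM in controls (log2 fold change 2.002, SE 0.32, edgeR adjusted p = 0.0101), where controls held only 3 to 30 counts. Espl1 was at 9.49 and 17.6 CPM in shTet2 and at 3.02, 0.963, 2.17, 4.46 and 4.12 CPM in controls (2.11, SE 0.38, adjusted p = 0.0268). Sgol2 was at 2.82 and 4.49 CPM in shTet2 and at 1.13, 0.963, 0.821, 1.01 and 1.63 CPM in controls (1.70, SE 0.32, adjusted p = 0.0190). For all 3 both shTet2 libraries were above every control. Cdca5 was called in all 7 fits that left out a library, Espl1 in 4 (not without shTet2 replicate 2, control replicate 1 or control replicate 3; log2 fold change 1.60 to 2.48) and Sgol2 in 3 (not without shTet2 replicate 2 or control replicate 1, 2 or 3; 1.33 to 1.99). The 9 partners not called, named with their values known, were Sgol1, the other shugoshin (0.65, adjusted p = 0.132), Pttg1, the securin that inhibits separase (0.06, adjusted p = 0.901), Pds5a (0.29, adjusted p = 0.114) and Wapal (0.21, adjusted p = 0.215), which bind the ring, and Pds5b, Stag1, Mau2, Hdac8 and Ctcf, between -0.06 and 0.16. So the calls did not cover all partners that act in mitosis.

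Of 7 other condensin genes, 4 were called, all higher in shTet2. Kif4, a chromokinesin that works with condensin I, was at 9.70 and 14.5 CPM in shTet2 and at 1.69 to 4.30 CPM in controls (log2 fold change 2.08, SE 0.29, edgeR adjusted p = 0.00679). Ncaph, the kleisin of condensin I, was at 7.87 and 11.4 CPM against 2.65 to 4.72 CPM in controls (1.34, SE 0.23, adjusted p = 0.0120). Ncapd2, the other HEAT-repeat subunit of condensin I, was at 44.7 and 63.3 CPM against 14.7 to 26.7 CPM (1.26, SE 0.19, adjusted p = 0.0148). These are the partners of Ncapg in condensin I, and for all of them the shTet2 libraries lay above the controls. In condensin II, Ncapd3 was called at 18.4 and 20.2 CPM against 10.7 to 14.7 CPM (0.63, SE 0.14, adjusted p = 0.0381), while Ncapg2 (1.32, SE 0.31, adjusted p = 0.0685), Ncaph2 (0.39, adjusted p = 0.213) and Mcph1, a regulator of condensin II (0.10, adjusted p = 0.797), also named with their values known, were not. The groups of Ncaph2 and Mcph1 overlapped. The call of Ncapd3 was kept in 1 of 7 fits that left out a library, the one without shTet2 replicate 1 (log2 fold change 0.57 to 0.70 over the 7). None of 8 SMC5/6 genes was called, and none had an unadjusted p under 0.05; the smallest p belonged to Nsmce4a (-0.09, adjusted p = 0.650) and Fam178a (-0.09, adjusted p = 0.661). Of the meiotic genes only Rec8 could be tested (0.41, adjusted p = 0.680). Exons of Sgol2, Kif4, Ncapd2 and Ncaph2 share bases with neighbouring genes, Sgol2 with Kctd18 over 2455 bases and Ncaph2 with Sco2 and Tymp over 1362 bases, so some of their reads cannot be assigned. In the promoter windows of the called partners, a CHR lies at -17 to -12 and -9 to -4 in Cdca5, at -27 to -22 in Espl1, at -123 to -118 in Ncapd2 and at -249 to -244 in 1 of 2 windows of Ncapd3. CHR letters are also in windows of Ncapg2, Ctcf, Hdac8, Pds5b and Smc6, which were not called, and are absent from those of Kif4, Ncaph and Sgol2, which were.

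The mitosis and replication genes moved with the same libraries. Of 20 mitosis genes, 17 were called higher in shTet2 (median log2 fold change 1.80, range 0.70 to 2.12), with the smallest p for Cenpe (1.62, edgeR adjusted p = 0.000571), a kinetochore motor. The other 16 were Top2a, Ccnb1, Ccnb2, Cdk1, Aurka, Aurkb, Plk1, Bub1, Bub1b, Cenpf, Kif11, Tpx2, Ccna2, Cdc20, Incenp and Nusap1. Of 20 replication genes, 10 were called higher (median 0.80), with the smallest p for Pola1 (0.82, adjusted p = 0.00502), a subunit of DNA polymerase alpha, beside Mcm2, Mcm3, Mcm4, Mcm5, Mcm6, Mcm7, Cdc6, Pole and Rrm1. The summed CPM of the mitosis list was 575 and 911 in shTet2 and 138 to 275 in controls. Scaled per 100 CPM of that list, Ncapg was at 2.59 and 2.06 in shTet2 and at 2.04 to 2.97 in controls, so the groups overlapped. Esco2 on that scale was at 0.989 and 1.07 in shTet2, still above the 0.753 to 0.873 of controls. Smc2, at 5.65 and 4.92 in shTet2, was below its controls at 8.22 to 15.2, and Smc4, at 16.4 and 11.6, was below its controls at 22.7 to 60.6. On this scale Esco2 was slightly above, Ncapg level with and the condensin SMC pair below the controls. The Esco2 gap was narrow, and its control values rest on 5 to 27 counts. The highest of them, 0.873 in control replicate 2, rests on 5 counts, so the place of Esco2 on this scale is uncertain. The other members were not scaled this way. Because the mitosis sum was itself higher in shTet2, a gene that rose less than that sum lies below its controls by construction.

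Other measures separated the same lymphoma libraries. The share of ribosomal and structural RNA was lower in both shTet2 libraries (43.5% and 52.5%) than in any control (54.8% to 80.6%), and with this share as a covariate no gene of the table was called, with Esco2 at a log2 fold change of 1.67, Ncapg at 1.62 and Smc2 at 0.60. The GC markers Fas (1.29, edgeR adjusted p = 0.0148) and S1pr2 (2.73, adjusted p = 0.0297) were called higher, 2 of 7 tested, with a summed level of 185 and 226 CPM in shTet2 and 118 to 148 CPM in controls. Of 5 plasma-cell markers, Xbp1 (0.81) and Prdm1 (1.21) were called higher. Irf4 lay the other way without a call, at 106 and 126 CPM in shTet2 and 132 to 147 CPM in controls. The plasma-cell sums overlapped, at 292 and 485 CPM in shTet2 and 217 to 301 CPM in controls. None of 7 tested myeloid markers was called, with a summed level of 29.7 and 97.2 CPM in shTet2 and 29.3 to 35.6 CPM in controls, and Cd14 was at 0 in 1 of 2 shTet2 and 1 of 5 control libraries. The high value came from shTet2 replicate 2, where Itgam was at 53.6 CPM against 7.04 CPM in replicate 1. None of 6 T-cell and 2 erythroid markers was called, and the T-cell markers summed to 7.82 and 12.8 CPM in shTet2 and 4.79 to 18.1 CPM in controls. The part of these differences in the lymphoma results was not tested. Without shTet2 replicate 2, Esco2 and Ncapg were still called, while the count of other cohesin and condensin genes called was 2 (Cdca5, Kif4) in place of 7. Without control replicate 1 or without control replicate 3 it was 4 (Cdca5, Kif4, Ncapd2, Ncaph).

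The effect of the knock-down in lymphoma cells was also set against the effect of the knock-out in GC B cells, in a model of all 14 libraries. The difference shares every library with the comparisons above and is a property of the same values. Of 15441 genes tested, 4.99% were called, 3.39% with the higher and 1.61% with the lower effect in lymphoma cells, and so were 3 of the 10 members. The shTet2 effect exceeded the KO effect by 1.72 for Esco2 (SE 0.26, edgeR adjusted p = 0.000670), by 1.45 for Ncapg (SE 0.25, adjusted p = 0.00188) and by 0.79 for Smc2 (SE 0.18, adjusted p = 0.0124) on the log2 scale. Without shTet2 replicate 2, the value for Smc2 was 0.51 with an adjusted p of 0.208. The other members differed by -0.14 (Esco1, adjusted p = 0.608) to 0.35 (Rad21, adjusted p = 0.250). Of 29 other genes of the complexes, 7 were called (Kif4, Cdca5, Espl1, Sgol2, Ncaph, Ncapg2, Ncapd2), all with the higher effect in lymphoma cells, and without shTet2 replicate 2 the count was 4. The mitosis list had 19 of 20 genes called in that direction and the replication list 9 of 20.

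Levels of the 10 genes were then compared per kilobase of exon, in CPM scaled over all 14 libraries. In WT GC B cells the order was Rad21 (81.8 ± 9.97, SD, n = 3), Smc4 (63.8 ± 5.40), Smc1a (51.8 ± 5.68), Smc3 (26.8 ± 3.25), Smc2 (20.2 ± 2.87), Stag2 (16.5 ± 1.99), Esco2 (14.8 ± 0.725), Ncapg (14.2 ± 1.01), Nipbl (10.03 ± 1.16) and Esco1 (8.39 ± 0.783) CPM per kb. Neighbours from Smc2 to Ncapg overlapped over the libraries, and so did Nipbl and Esco1, while Rad21, Smc4, Smc1a and Smc3 each stood apart from the next. In KO GC B cells Esco2 was at 20.9 ± 2.0 (n = 4), level with Smc2 at 20.7 ± 1.45 CPM per kb, and the genes above and below kept the WT order of Rad21, Smc4, Smc1a and Smc3 at the top and Nipbl and Esco1 at the bottom. In these dividing cells the S-phase acetyltransferase was thus above its paralog, by level per length, in every library of both groups.

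In control lymphoma cells the order was Nipbl (38.2 ± 2.69, SD, n = 5), Rad21 (36.0 ± 4.38), Stag2 (30.1 ± 1.31), Smc4 (23.5 ± 3.78), Smc1a (21.1 ± 1.43), Esco1 (19.1 ± 1.09), Smc3 (15.5 ± 0.961), Smc2 (6.21 ± 0.689), Ncapg (1.09 ± 0.378) and Esco2 (0.626 ± 0.184) CPM per kb. Nipbl, Rad21 and Stag2 overlapped with their neighbours, as did Smc4, Smc1a and Esco1, and Ncapg and Esco2. In shTet2 cells Rad21 was at 45.4 ± 5.44 (n = 2), Nipbl at 35.6 ± 0.339, Smc2 at 11.1 ± 2.50, Ncapg at 3.74 ± 0.604 and Esco2 at 3.02 ± 1.13 CPM per kb. Esco2 and Ncapg in shTet2 thus lay between the control lymphoma level and the WT GC level, at 14.8 and 14.2 CPM per kb. This was not particular to them. The shTet2 means of Smc2, Smc4 (31.2) and Rad21 lay between these levels too, and those of Smc1a (21.4) and Smc3 (15.9) just above the control lymphoma level. The rank of the acetyltransferases was exchanged between the cell sources: Esco1 was above Esco2 in all 7 lymphoma libraries.

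**Figure D3:**
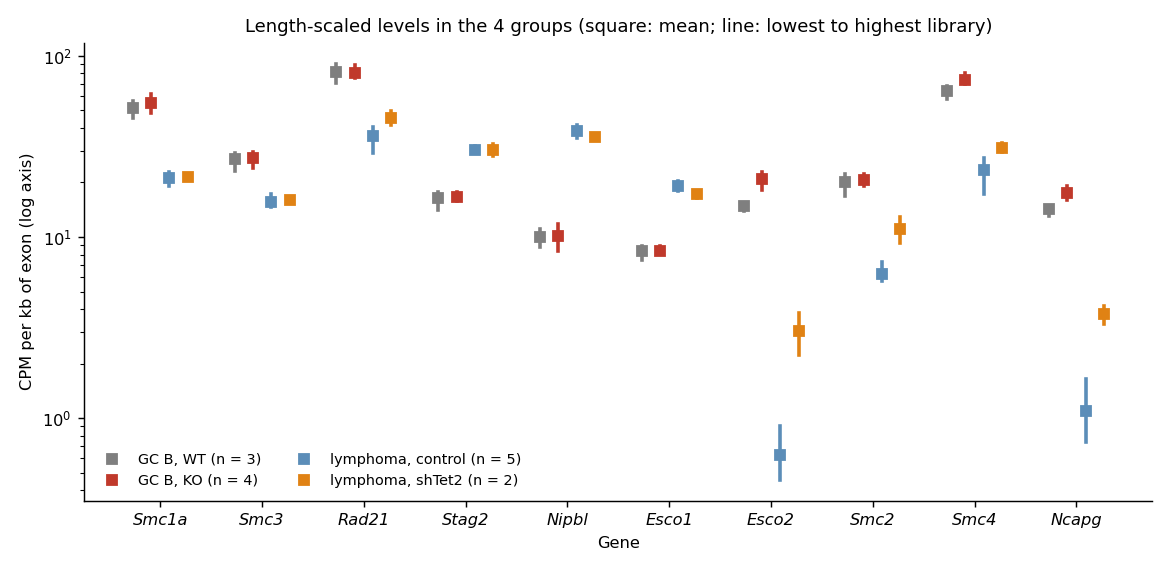
Level per kilobase of exon (CPM scaled over all 14 libraries, log axis) of the 10 genes in the 4 groups; squares are group means and lines run from the lowest to the highest library. Nipbl, Stag2 and Esco1 sat higher in lymphoma cells and the other 7 higher in GC B cells, with Esco2 going from 14.8 in WT GC B cells to 0.626 CPM per kb in control lymphoma cells.

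In the test of control lymphoma against WT GC B cells all 10 members were called, but so were 80.7% of all 15441 genes, 40.2% as higher and 40.4% as lower. Higher in control lymphoma cells were Nipbl (log2 fold change 1.93, SE 0.11), Esco1 (1.18, SE 0.09) and Stag2 (0.87, SE 0.09). Lower were Esco2 (-4.53, SE 0.17), Ncapg (-3.68, SE 0.17), Smc2 (-1.70, SE 0.12), Smc4 (-1.44, SE 0.11), Smc1a (-1.29, SE 0.09), Rad21 (-1.17, SE 0.10) and Smc3 (-0.79, SE 0.09). The greatest differences were those of Esco2 and Ncapg, while the loader, a STAG subunit and the acetyltransferase Esco1 lay on the other side. All 20 mitosis genes (median -4.18) and all 20 replication genes (median -3.16) were lower in control lymphoma cells, and of 29 other genes of the complexes 6 were higher and 19 lower. The cell sources came in separate tables with different depth and ribosomal RNA share, and these cannot be told apart from the cell type here. Sex-linked genes moved with it too: the 4 Y-linked genes summed to 96.3 to 192 CPM over the GC libraries and had 0 counts in all 7 lymphoma libraries, and Xist was higher in control lymphoma cells (log2 fold change 2.91). Smc1a and Stag2 are X-linked. All 7 T-cell markers were called higher in control lymphoma cells as well. The part of these in the levels was not tested. Length moved with this contrast as well: the median log2 fold change was -0.05, -0.57, -0.17 and 0.54 in quartiles of exon length from shortest to longest, with Esco1, Esco2, Rad21 and Smc4 in the third and the other 6 members in the longest. The part of length was not tested either.

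Across the 14 libraries, after the mean of each group was taken away, the genes with log CPM most like that of Esco2 out of 15440 compared were Fastkd3 (Pearson r = 0.95), Fancg (0.94) and Kif11 (0.93). Those most like Ncapg were Gas2l3 (0.96), Plekho1 (0.94) and Cdca8 (0.92), and those most like Esco1 were Ptpn4 (0.88), Zfp518a (0.87) and Mtm1 (0.87). The values describe these libraries only, since libraries share depth and composition and the best of so many genes is high by selection. In the heat map of library values, Smc1a, Smc3 and Stag2 stayed between -0.21 and 0.21. Rad21 ran from -0.29 in lymphoma control replicate 2 to 0.43 in shTet2 replicate 2. The lymphoma controls varied, with control replicate 2 at -1.61 for Espl1, -0.99 for Cdca5 and -0.73 for Kif4. Those values rest on only 4, 3 and 7 counts, and control replicate 3 was nearly as low for Kif4 (-0.66).

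**Figure D4:**
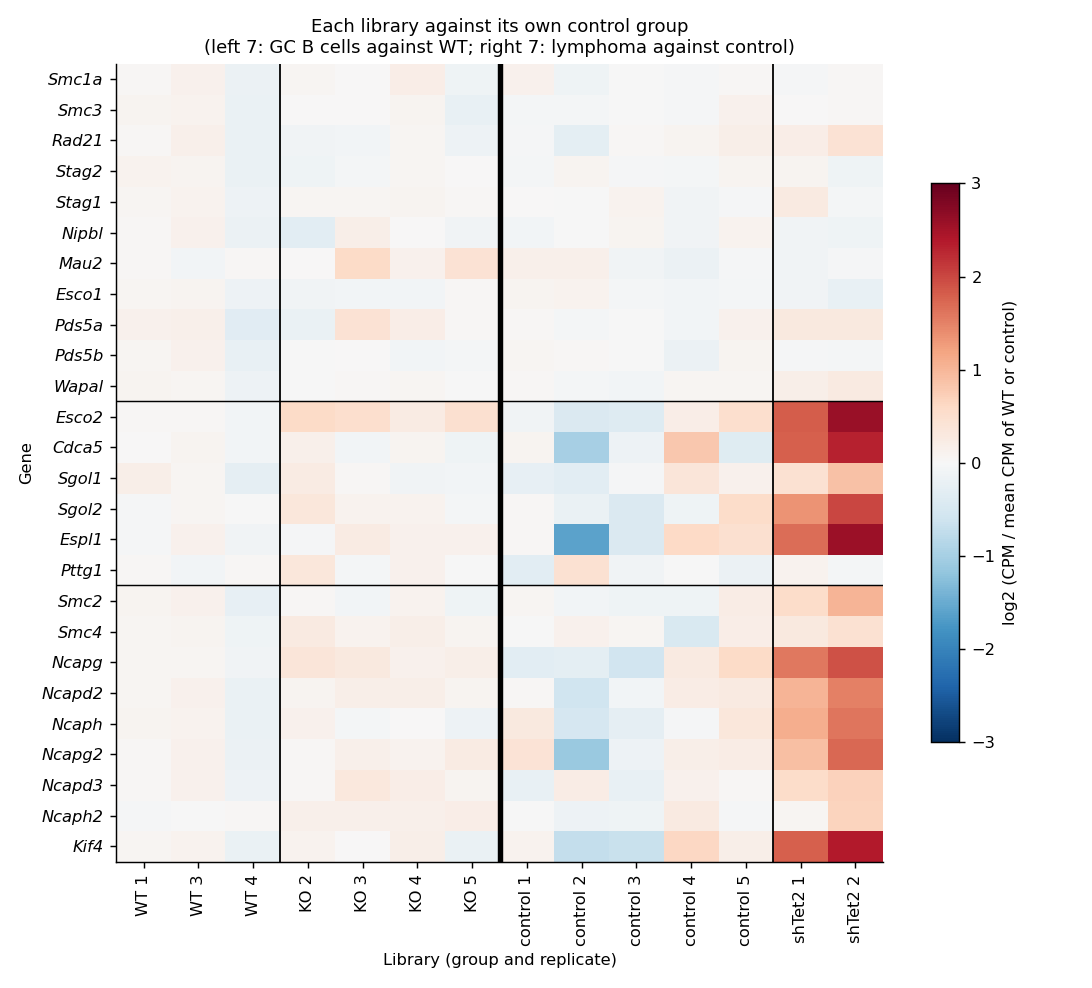
Log2 of the CPM over the mean CPM of WT (GC B cells, left) or of controls (lymphoma cells, right), for the 10 members and 16 other cohesin and condensin genes, in every library; lines part the blocks of cohesin genes (top and middle) and condensin genes (bottom). Esco2, Cdca5, Sgol2, Espl1, Ncapg, Ncapd2, Ncaph and Kif4 are red in both shTet2 libraries, and in the KO libraries Esco2 is the reddest of the 10 members.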

How the data were processed

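Per the labels' protocols, libraries were stranded TruSeq mRNA libraries from Trizol and RNeasy extracts. Per the submitters' processing notes, the aligner was STAR 2.3.0e and the genome GRCm38.p3. The values deposited by the authors, in 2 tables, are raw counts of reads over GENCODE vM3 exons, summed by gene name in featureCounts 1.5.1 and without a strand or paired-end option, per the file headers. Exon length per gene, deposited in the same tables per the file headers, was used for levels per kilobase. All 14 libraries were mapped by title, with 0 columns left over. No pair of libraries of a group agreed within sampling noise.

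Counts were tested with edgeR 4.0.16 in R 4.3.3 (filterByExpr, TMM, robust quasi-likelihood fit), each cell source on its own, with Benjamini-Hochberg adjustment over all genes tested and a threshold of 0.05. One model of all 14 libraries gave the difference between effects and the contrast of cell sources. Log CPM used a prior count of 2. Intervals are estimates ± 1.96 SE in edgeR. They use a normal quantile, so with few libraries they can be narrower than their stated level. An interval that excludes no change is not a call. Because counting ignored strand, reads of overlapping genes could not be separated. The code was tested on simulated data. Alternatives were upper-quartile scaling, DESeq2 1.42.0, limma-voom (limma 3.58.1), no filter, removal of the ribosomal list, its share as a covariate, all groups in 1 fit, a replicate block and leaving out each library.

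The members and the gene lists were chosen with earlier results of these data known. The rule for names was all 10 members and, of the other lists, every gene called in the contrast or else the 2 with the smallest p. It was followed within GC B cells and within lymphoma cells for the complexes, mitosis and replication. For the difference between effects it was followed for the complexes alone. Marker lists, and the lists in the contrast of cell sources, are mostly given as counts. The 3 genes most like Esco1, Esco2 and Ncapg by correlation are also named. Of 146 list entries 9 were not found in the tables and 7 were matched by an older symbol. The ribosomal list (10 of 18 entries found) includes Yam1, Lars2 and Rn7sk, so it is not annotated ribosomal RNA alone. Promoters came from RefSeq on GRCm38.p6.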

Additional observations from a re-analysis of the deposited data

Results flagged for a closer look

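Esco1 in KO GC B cells had 1 library apart from the others: replicate 5 was at 62.6 CPM, while the other 3 were at 56.6 to 57.4 CPM. Smc3 in lymphoma controls had replicate 5 at 61.1 CPM, while the other 4 were at 53.7 to 55.3 CPM. Chance marks about 1 in 20 such groups, and 36 groups were screened. For 10 genes the shTet2 effect in lymphoma cells differed from the KO effect in GC B cells in the edgeR test of the difference itself (adjusted p under 0.05, in a model of all 14 libraries). Among the members, the log2 differences were 1.72 for Esco2, 1.45 for Ncapg and 0.79 for Smc2. Among the other cohesin genes they were 1.94 for Cdca5, 1.93 for Espl1 and 1.53 for Sgol2. Among the other condensin genes they were 2.01 for Kif4, 1.31 for Ncaph, 1.13 for Ncapg2 and 1.09 for Ncapd2. All 10 effects were the higher in lymphoma cells, where the ribosomal RNA share also differed between the groups.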

How the results depend on the processing

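Esco2 was called in GC B cells without any 1 library (log2 fold change 0.41 to 0.51), and so were Esco2 (1.77 to 2.55) and Ncapg (1.56 to 1.94) in lymphoma cells. The count of members called without any 1 library was 1 to 1 in GC B cells, 2 to 4 in lymphoma cells, 2 to 3 for the difference of effects and 10 to 10 between cell sources. For the other genes of the complexes these counts were 0 to 1, 2 to 10, 4 to 7 and 24 to 27. Replicate numbers were shared by some libraries, but libraries with the same number did not deviate together (correlations of 0.029 and -0.032 for GC B cells, -0.039 and -0.0094 for lymphoma). Only replicates 3 and 4 are shared in GC B cells, and only replicates 1 and 2 in lymphoma cells. A replicate block fits every other library by a term of its own, so its effects rest on the shared replicates alone. Its counts of calls are therefore not comparable with those of the main fit. With a replicate block, 0 members were called in GC B cells (Esco2 0.39, adjusted p = 0.0796), 0 members and 0 other genes in lymphoma cells (Esco2 2.37, Ncapg 2.02, Smc2 0.78), and 2 members and 2 other genes for the difference of effects. With the ribosomal share as a covariate 0 members and 0 other genes were called in lymphoma cells (Esco2 1.67, Ncapg 1.62, Smc2 0.60). In GC B cells the other genes called were 0, against 2 with no filter, 1 with DESeq2, 1 with limma-voom and 1 with all groups in 1 fit. Over all genes, the 330 calls in lymphoma cells became 782 with no filter, 593 with DESeq2, 840 with all groups in 1 fit, 4 with the block and 0 with the covariate. The 883 calls in GC B cells became 1365 with no filter and 570 with the block, and the 771 of the difference became 1198 with DESeq2 and 256 with the block. Signs changed only for genes near 0 that were not called. In GC B cells the block gave Smc3 0.10, Rad21 0.021, Stag2 0.060, Nipbl 0.12, Smc2 0.068 and Ncaph 0.038, and all groups in 1 fit gave Smc3 0.027, Stag2 0.020, Nipbl 0.0057, Smc2 0.037 and Ncaph 0.042. In lymphoma cells upper-quartile scaling gave Smc1a -0.022 and Smc3 -0.0072, removal of the ribosomal list gave Stag2 0.0039, no filter gave Stag2 0.0092, all groups in 1 fit gave Stag2 0.0074, limma-voom gave Smc1a -0.0012, the block gave Smc1a -0.0027, and the covariate gave Smc1a -0.16 and Stag2 0.11. For the difference, Smc3 was at -0.0015 with no filter, -0.00027 with limma-voom and -0.053 with the block. Without 1 library, GC values ran from -0.040 to 0.055 for Cdca5, -0.055 to 0.10 for Kif4, -0.11 to 0.047 for Ncaph, -0.13 to 0.035 for Nipbl, -0.16 to 0.0076 for Rad21, -0.044 to 0.10 for Smc1a, -0.13 to 0.057 for Smc2, -0.12 to 0.033 for Smc3 and -0.13 to 0.028 for Stag2. Lymphoma values ran from -0.043 to 0.034 for Smc1a and -0.13 to 0.092 for Stag2, and differences from -0.15 to 0.014 for Smc1a, -0.053 to 0.10 for Smc3 and -0.13 to 0.084 for Stag2. The causes were not tested. Few counts in the lymphoma controls limit the precision for Esco2, Ncapg and Cdca5.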
